A study of Mus musculus with 10 samples.

Results

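The 33 genes described here are markers and signalling genes of blood and lymphatic vessels, taken by name from a table of 26063 genes measured in mouse mammary tumours. All 33 names were found in the table, each once. By role, 24 are pan-endothelial genes, 2 mark tip cells (Dll4 and Angpt2), 1 is the ligand Angpt1, 3 are lymphatic genes (Lyve1, Prox1 and Flt4) and 3 encode subunits of the adrenomedullin receptors (Calcrl, Ramp2 and Ramp3). The tumours came from 10 female FVB/N mice given doxycycline at 2 mg/ml, 5 of genotype EIC/WT (EIC) and 5 of genotype 16IC/WT (16IC). They were bulk tissue, frozen at end point, and RNA sequencing gave 1 library per tumour. The labels spell out neither EIC nor 16IC, and give no age, promoter or clone. By its title the study concerns ENPP1, a splice form of HER2 and tumours poor in immune cells. Vessels bring immune cells to a tumour, and the comparison made here is of vessel transcripts between the genotypes.

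Endothelial cells line every vessel. They are held together by VE-cadherin (Cdh5) and PECAM1, and respond to VEGF through the receptors VEGFR1 (Flt1), VEGFR2 (Kdr) and, mainly in lymphatic vessels, VEGFR3 (Flt4). During sprouting a leading tip cell displays the Notch ligand DLL4 and secretes angiopoietin 2, which competes with the vessel-stabilising angiopoietin 1 for the receptor TIE2 (Tek). Adrenomedullin is a vasoactive peptide whose receptor is CALCRL joined to RAMP2 or to RAMP3, and with RAMP1 the same receptor binds CGRP.

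Libraries held 14813940 to 16947400 counts, and mitochondrial genes took 0.549% to 1.41% of them. Epithelial markers, checked against the labelled tissue, summed to 4413 to 7118 CPM in EIC and to 4460 to 6223 CPM in 16IC (9 genes, 4 higher and 5 lower), with Krt19 at 0 in 16IC 4. The number after a genotype only names a tumour. Levels below are CPM, counts scaled to the size of the library after TMM normalization, given as mean ± SD over 5 tumours, and differences are log2 of 16IC over EIC from edgeR. Of the 33 genes, 32 passed edgeR's filter on low counts, and Prox1 did not. In vessel genes 16IC 3 and EIC 2 stood apart from the other tumours. Of the 24 pan-endothelial genes, 20 had their lowest level in 16IC 3 and the other 4 in EIC 2, so counts and levels over these genes are also given without 16IC 3. In bulk tissue, fewer vessel cells and less RNA per vessel cell cannot be told apart.

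No vessel gene passed edgeR's test adjusted over all genes. Of the 32 tested genes 0 were called as higher and 0 as lower, and the background was 0% in each direction, since edgeR called no gene at all (14915 tested). At an unadjusted p under 0.05, 2 of 32 were lower (Ramp3 and Flt1; background 6.29%) and 0 were higher (background 6.84%), against 13.1% of all genes in either direction. DESeq2 called 1 of 33 genes as lower, Ramp3 (background 1.27%), and 0 as higher (background 0.843%). Ramp3 was also the only one of the 32 whose groups did not overlap, as lower in 16IC (background 1.19%), with 0 as higher (background 1.39%). The counts as lower lie near their backgrounds. Over the 32 tested genes 12 were higher (background 47.7% with a difference above 0) and 20 lower. Scaling by total count left 7 higher. Over all 14915 genes tested it left 6387 higher (median log2 difference -0.07), against 7114 with TMM. With TMM the median log2 difference of the 32 genes was -0.16, against -0.02 over all genes tested.

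**Figure D1:**
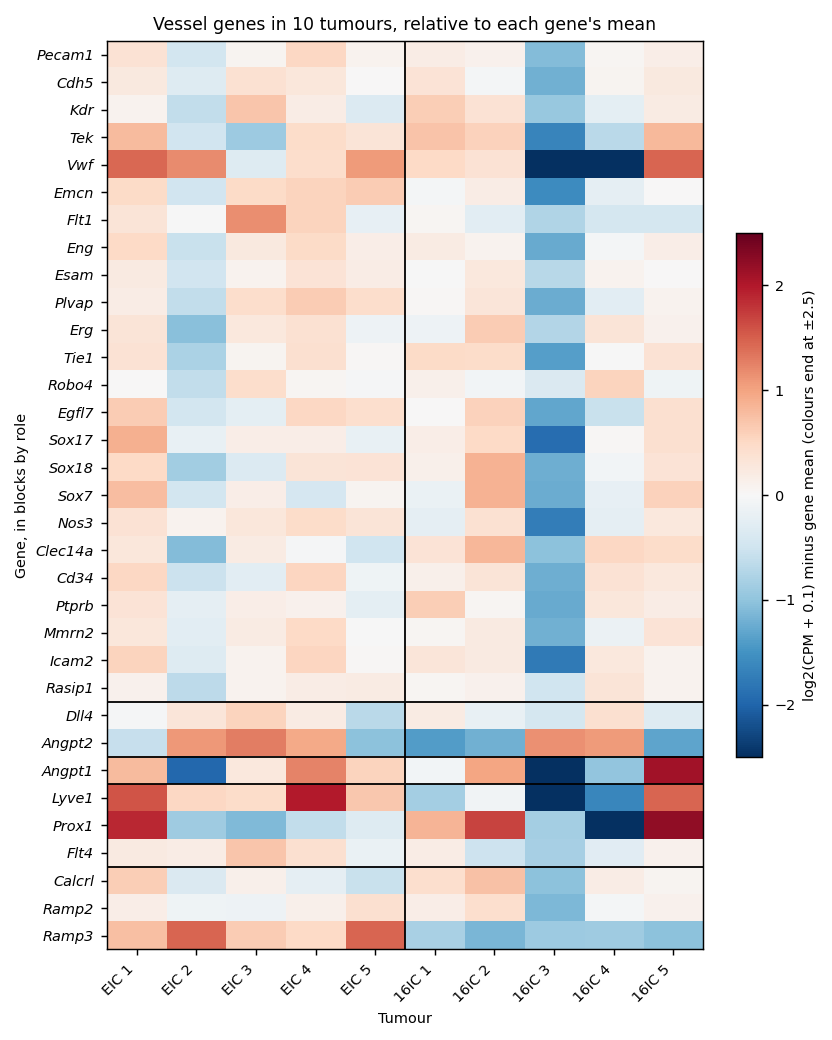
Levels of the 33 vessel genes (rows, in blocks by role) in the 10 tumours (columns), as log2(CPM + 0.1) minus the mean of each gene, with red above and blue below that mean. All 24 pan-endothelial genes of 16IC 3 lie below their own mean, and the bottom row, Ramp3, is red in the 5 EIC tumours and blue in the 5 16IC tumours.

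The pan-endothelial genes were counted in every tumour, and for 18 of the 24 the genotypes differed by less than 0.3 on the log2 scale. Cdh5, the adhesion protein of endothelial junctions, had 58.3, 39.1, 63.6, 59.3 and 49.1 CPM in EIC 1 to EIC 5 and 62.0, 47.3, 21.3, 51.5 and 58.0 CPM in 16IC 1 to 16IC 5. The groups overlapped, with 16IC 3 as the lowest tumour. The log2 difference was -0.17 (SE 0.26, 95% interval from -0.74 to 0.41, edgeR adjusted p = 0.795). Pecam1, an adhesion molecule of endothelium, platelets and leukocytes, averaged 58.5 ± 14.2 CPM in EIC against 51.0 ± 14.8 CPM in 16IC (log2 difference -0.20, and -0.021 without 16IC 3). Kdr, the main signalling receptor for VEGF, had 25.6, 15.7, 39.3, 27.7 and 19.2 CPM in the EIC tumours and 37.0, 31.0, 12.5, 20.4 and 28.0 CPM in the 16IC tumours. Its groups overlapped throughout, with a log2 difference of 0.01 and an interval from -0.69 to 0.72.

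Of the 24 genes 10 had a log2 difference within 0.1 of 0. These 10 are, besides Kdr, the TIE receptors Tek and Tie1, the endothelial transcription factors Erg, Sox18 and Sox7, the guidance receptor Robo4, the sialomucin Cd34, the phosphatase Ptprb (VE-PTP) and the junction regulator Rasip1. No direction is given for them, since each of these 10 changed its sign in at least 1 alternative fit (another scaling, another test or 1 tumour left out). The 95% interval included 0 for 23 of the 24. The widest was that of Vwf, from -2.44 to 1.03. By count 10 were higher and 14 lower, with a median of -0.15. Scaling by total count left 5 higher, and it also lowered the number over all genes (6387 against 7114 of 14915). Without 16IC 3 the split was 14 higher and 10 lower, with a median of 0.04.

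The 24 genes were low together in 16IC 3 and, less so, in EIC 2. Their summed level was 627, 356, 584, 647 and 526 CPM in EIC 1 to EIC 5 and 559, 571, 217, 472 and 558 CPM in 16IC 1 to 16IC 5. All tumours but EIC 2 and 16IC 3 lay between 472 and 647 CPM, in both genotypes. The genotype averages of the sum were 548 ± 117 CPM in EIC and 476 ± 149.9 CPM in 16IC, and 540.2 ± 46.1 CPM in 16IC without 16IC 3. In 16IC 3 the genes lay on average 1.27 log2 units below their own means (mean deviation -1.27), and in EIC 2 the mean deviation was -0.43. Within a genotype, the SD of a gene's log2 level was 0.57 at the median. After the tumour's mean deviation over the 24 genes was subtracted it was 0.26, and it fell for 21 of the 24 (each gene is part of that mean). Without 16IC 3 the medians were 0.37 before and 0.24 after the subtraction. Without both 16IC 3 and EIC 2 they were 0.25 and 0.26, so the fall of the median SD rested on these tumours. The SD of the single genes still fell for 17 of the 24 in that setting. Beside these values, fibroblast markers (10 genes, 9 lower in 16IC, none called by edgeR) had sums from 1738 to 6708 CPM in EIC and from 386 CPM, in 16IC 3, to 3361 CPM in 16IC, while epithelial markers (9 genes, summed) stood at 6223 CPM in 16IC 3, the highest of its genotype, and at 4413 CPM in EIC 2, the lowest of its genotype. Fibroblast markers were lowest of the genotype in EIC 2 too, with 1738 CPM. The summed pericyte and mural markers (10 genes) were lowest in neither tumour. They stood at 444 CPM in 16IC 3 (378 to 489 CPM in 16IC) and at 596 CPM in EIC 2 (301 to 857 CPM in EIC). Single genes differed from the sum, of which Notch3 made 296 CPM in 16IC 3 and Des 192 CPM in EIC 2. Within 16IC, Pdgfrb, Mcam, Cspg4, Higd1b and Des were lowest in 16IC 3, Notch3 and Kcnj8 highest, and the others neither. Within EIC, Rgs5, Pdgfrb and Higd1b were lowest in EIC 2, Des and Kcnj8 highest, and the others neither. The part of these markers in the vessel levels was not tested.

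Flt1 (ENSMUSG00000029648, chr5:147561604-147726011 on GRCm38, minus strand) was the pan-endothelial gene with the smallest p. It encodes VEGFR1, which binds VEGF tightly, signals weakly and is also made as a soluble decoy, and gene counts do not separate the forms. Its levels were 34.2, 27.0, 61.2, 40.1 and 23.7 CPM in the EIC tumours and 28.2, 22.7, 16.1, 20.2 and 20.1 CPM in the 16IC tumours. The groups overlapped only through 16IC 1, which lay above EIC 2 and EIC 5. The log2 difference was -0.79 (SE 0.26, 95% interval from -1.37 to -0.22), and the unadjusted p of 0.0118 became 0.290 when adjusted over all genes (edgeR). Without 1 tumour at a time the difference ran from -0.92 to -0.55. Flt1 therefore did not pass the test. Emcn, an anti-adhesive sialomucin of capillary and venous endothelium, averaged 14.2 ± 3.68 CPM in EIC against 9.30 ± 3.38 CPM in 16IC (log2 difference -0.61, edgeR adjusted p = 0.444, and -0.40 without 16IC 3). Its groups separated when EIC 2 was left out. Clec14a, an endothelial lectin, had the largest positive difference of the 24, 0.49 (edgeR adjusted p = 0.563). It averaged 10.1 ± 3.52 CPM in EIC against 14.1 ± 5.32 CPM in 16IC, and its groups separated without 16IC 3.

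Other pan-endothelial genes with negative differences did not pass either. Plvap, which forms the diaphragms of fenestrated endothelium, averaged 74.2 ± 21.1 CPM in EIC against 55.7 ± 18.9 CPM in 16IC (-0.41, and -0.23 without 16IC 3). The nitric oxide synthase Nos3 had 5.28 ± 0.499 and 3.82 ± 1.69 CPM, and it is uncertain because an antisense gene covers 88.6% of it. Eng, a co-receptor for TGF-beta family ligands, had 63.5 ± 16.4 and 51.9 ± 16.7 CPM (-0.29, and -0.10 without 16IC 3). Differences from -0.27 to -0.13 were found for the secreted protein gene Egfl7, the matrix gene Mmrn2, the adhesion genes Icam2 and Esam and the transcription factor gene Sox17. Without 16IC 3 the sign turned for Icam2, Sox17 and Cdh5, and also for Cd34 (from -0.027 to 0.18). Egfl7 is uncertain, since another annotated gene on its strand covers 49.5% of it. Per transcript length (the authors' FPKM, median over 10 tumours), Plvap was the most abundant of the 33 genes with 33.4, before Eng with 14.8 and Cdh5 with 12.7. The least abundant pan-endothelial genes on that scale were Sox17 with 0.581 and Vwf with 0.721.

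Vwf, the clotting factor stored in endothelium and platelets, varied most among the 24. It had 23.3, 19.5, 6.83, 11.7 and 18.0 CPM in the EIC tumours and 12.1, 11.1, 0.730, 1.17 and 23.7 CPM in the 16IC tumours. The lowest levels were in 16IC 3 and 16IC 4 and the highest in 16IC 5, so the range of 16IC enclosed that of EIC (log2 difference -0.70, SE 0.78, edgeR adjusted p = 0.704). Without 16IC 5 the difference was -1.35, and with limma's quality weights -1.53. Its within-genotype SD was 1.60 log2 units, against 0.33 for Rasip1, the least variable. Of the platelet markers, 2 were abundant enough to test, both lower and neither called by edgeR. Pf4 averaged 6.11 ± 3.85 CPM in EIC against 3.79 ± 1.61 CPM in 16IC, and Itga2b 5.55 ± 1.69 against 3.69 ± 1.68 CPM. Gp9 and Gp6 were at 0 in at least 1 tumour. The part of platelets in the Vwf level was not tested.

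**Figure D2:**
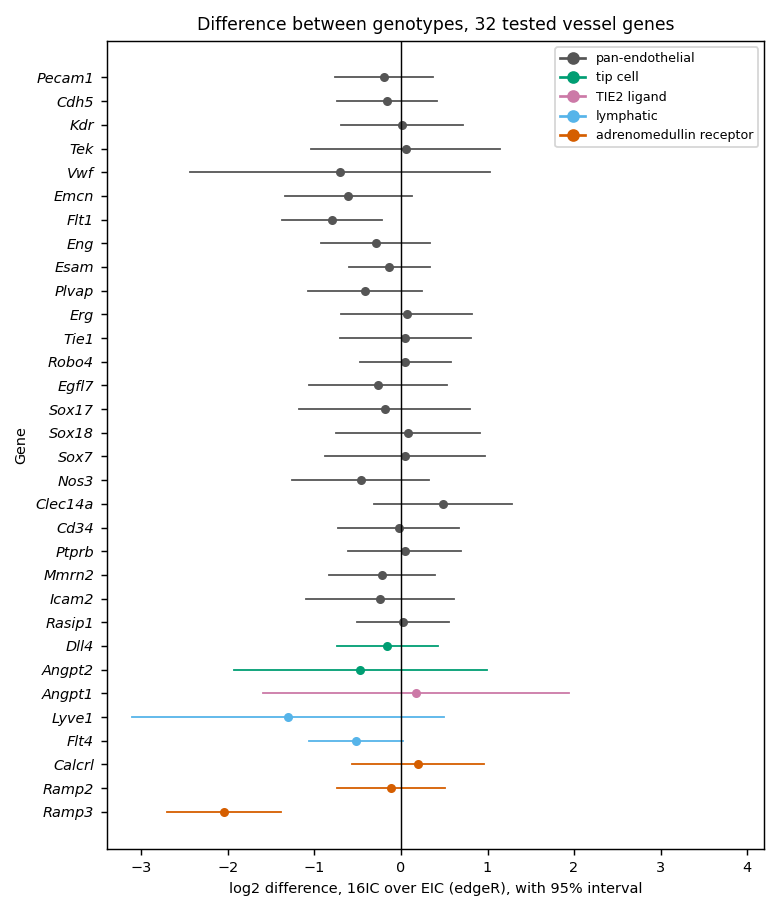
Log2 difference of 16IC over EIC for each of the 32 tested vessel genes (dots), with its 95% interval from edgeR (lines), coloured by role. Only the intervals of Ramp3 (-2.70 to -1.39) and Flt1 (-1.37 to -0.22) leave out 0.

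Among the adrenomedullin receptor genes, Ramp3 was apart between the genotypes while Calcrl and Ramp2 overlapped, and edgeR called none of them. Calcrl, the receptor itself, had 11.7, 5.88, 8.27, 6.44 and 5.12 CPM in the EIC tumours and 10.1, 12.7, 3.65, 8.64 and 7.97 CPM in the 16IC tumours. These groups overlapped (log2 difference 0.20, SE 0.35, edgeR adjusted p = 0.812). Ramp2, the accessory protein that vessel development depends on, had 8.46, 6.95, 6.83, 8.19 and 9.94 CPM in the EIC tumours and 8.43, 10.1, 3.41, 7.27 and 8.09 CPM in the 16IC tumours. They overlapped too, with 16IC 3 lowest (-0.12, SE 0.28, interval from -0.74 to 0.51, adjusted p = 0.871), and the sign turned without 16IC 3 (0.07). Ramp2 is uncertain because Vps25 overlaps 43.2% of it on the same strand.

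Ramp3 (ENSMUSG00000041046, chr11:6658521-6677475, plus strand) encodes the other accessory protein. It had 4.23, 7.01, 3.89, 3.56 and 6.99 CPM in the EIC tumours and 1.37, 1.07, 1.28, 1.30 and 1.17 CPM in the 16IC tumours. Every 16IC tumour lay below every EIC tumour, and the 16IC tumours were close to each other. An annotated pseudogene on the opposite strand overlaps 9.04% of Ramp3. These levels rest on 57 to 118 counts per library in EIC and on 18 to 21 in 16IC. The difference was -2.05 (SE 0.30, 95% interval from -2.70 to -1.39), which is a level 4.13-fold higher in EIC. Ramp3 did not pass edgeR (adjusted p = 0.0947) and passed DESeq2 (adjusted p = 3.02e-07). DESeq2 called it in all 10 fits with 1 tumour left out (highest adjusted p 1.75e-05), and edgeR's adjusted p ran from 0.102 to 0.315 in the same fits.

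Within single tumours, Ramp3 was lower relative to its partners. Both ratios contain Ramp3, whose own level gave an exact permutation p of 0.00794, so they are no separate evidence. The log2 ratio of Ramp3 to Ramp2 was -0.98, 0.01, -0.79, -1.17 and -0.50 in EIC and -2.52, -3.09, -1.33, -2.37 and -2.66 in 16IC. All 16IC ratios lay below all EIC ratios, with 16IC 3, where Ramp2 was low, nearest to EIC. The difference was -1.71 (exact permutation p = 0.00794, two-sided, the smallest that 5 against 5 tumours can give; 0.0317 adjusted over the 4 ratios computed). For Ramp3 to Calcrl the difference was -2.05 (exact permutation p = 0.0159, adjusted 0.0317), with ratios from -1.44 to 0.44 in EIC and from -3.42 to -1.43 in 16IC, which just overlap. With the pan-endothelial level as a covariate, the edgeR difference of Ramp3 was -2.10 (interval from -2.75 to -1.45, edgeR adjusted p = 0.139), about as large as without it. Per length, in the authors' FPKM, Ramp3 averaged 3.62 ± 1.20, Ramp2 2.38 ± 0.383 and Calcrl 1.49 ± 0.548 in EIC. In 16IC the order was different, with Ramp3 at 0.868 ± 0.0875, Ramp2 at 2.19 ± 0.735 and Calcrl at 1.71 ± 0.657 FPKM. The order in EIC depends on the gene lengths used, 1380 bases for Ramp3, 3301 for Ramp2 and 4882 for Calcrl. In CPM, Ramp3 was the lowest in both genotypes, with 5.14 CPM in EIC against 8.07 for Ramp2 and 7.48 for Calcrl. Other cells than endothelium can express Ramp3. Pericyte and mural markers were lower for 7 of 10 genes (median -0.58, 5 lower with an unadjusted p under 0.05, background 6.29%), with sums from 301 to 857 CPM in EIC and from 378 to 489 CPM in 16IC, and none was at 0. Mcam, an adhesion gene of mural cells and endothelium named after its values were seen, had 66.2 to 153 CPM in EIC and 34.0 to 53.4 CPM in 16IC. Its groups did not overlap, as lower in 16IC (background 1.19%), with a difference of -0.95 (edgeR adjusted p = 0.261, DESeq2 adjusted p = 0.0333). The 3 higher genes of this list were Rgs5 (0.24), Notch3 (0.21) and Higd1b (0.19). The part of these markers in the Ramp3 level was not tested.

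**Figure D3:**
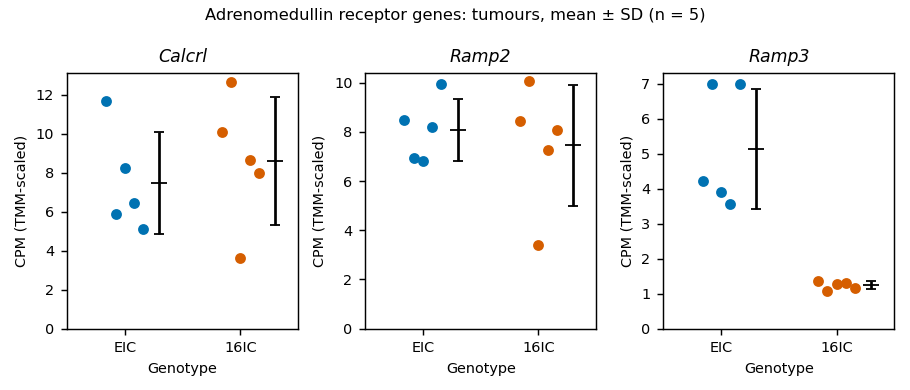
CPM of Calcrl, Ramp2 and Ramp3 in each tumour (points) by genotype, with the mean and SD of 5 tumours beside them (bar and whiskers). Calcrl and Ramp2 overlap between the genotypes, whereas Ramp3 lies between 1.07 and 1.37 CPM in 16IC and between 3.56 and 7.01 CPM in EIC.

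The sequences before the transcription start of 3 genes are shown because they belong to the vessel genes with the smallest p, Ramp3 and Flt1, and to Kdr, the VEGF receptor gene whose difference was nearest to 0. They are the 250 bases upstream of the RefSeq start on GRCm38.p6 (chr11:6658283-6658532 on the plus strand, chr5:147726012-147726261 and chr5:75978456-75978705 on the minus strand), printed 5′ to 3′ on the strand of the gene. Capitals mark GGAA, the core bound by ETS factors such as ERG, on either strand (TTCC on the printed one).
Ramp3: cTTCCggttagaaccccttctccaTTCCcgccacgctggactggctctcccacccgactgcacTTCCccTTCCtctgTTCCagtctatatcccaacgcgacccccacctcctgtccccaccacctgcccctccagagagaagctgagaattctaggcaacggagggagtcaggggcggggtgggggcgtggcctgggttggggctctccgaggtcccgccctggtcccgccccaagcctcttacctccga
Flt1: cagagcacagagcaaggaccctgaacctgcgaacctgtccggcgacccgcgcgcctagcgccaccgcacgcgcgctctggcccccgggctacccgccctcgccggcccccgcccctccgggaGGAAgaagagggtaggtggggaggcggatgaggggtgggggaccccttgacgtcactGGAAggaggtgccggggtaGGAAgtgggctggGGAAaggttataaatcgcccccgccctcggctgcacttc
Kdr: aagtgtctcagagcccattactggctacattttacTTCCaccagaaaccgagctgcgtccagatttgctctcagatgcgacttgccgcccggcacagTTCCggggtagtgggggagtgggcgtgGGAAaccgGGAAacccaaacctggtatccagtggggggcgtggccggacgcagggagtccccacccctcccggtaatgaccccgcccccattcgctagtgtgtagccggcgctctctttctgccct
Ramp3 holds 5 matches, Flt1 4 and Kdr 4. All 5 matches of Ramp3 read TTCC and all 4 of Flt1 read GGAA on the printed strand. At least 1 match is held by 93.4% of all 32851 promoters from RefSeq and 4 or more by 33.4%, so these counts are common. RefSeq gave 22 promoters for 17 of the 33 genes, some with several starts, and 21 of the 22 hold GGAA (1 of the 3 of Erg does not). ACGTG, the core bound by hypoxia-inducible factors, was found in 1 of the 22 (Clec14a), against 16.6% of all promoters. Both strands were searched, a match is no evidence of binding, and no match says only that the letters are not in this window.

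Angpt2, the tip-cell ligand that opposes TIE2 signalling, split the tumours within both genotypes. Its levels were 5.62, 18.0, 20.7, 16.3 and 4.10 CPM in the EIC tumours and 3.17, 3.63, 18.9, 17.8 and 3.34 CPM in the 16IC tumours. No tumour lay between 5.62 and 16.3 CPM, and the high tumours were EIC 2, EIC 3, EIC 4, 16IC 3 and 16IC 4. The genotypes did not differ beyond this spread (log2 difference -0.47, SE 0.66, interval from -1.94 to 0.999, edgeR adjusted p = 0.771). With the pan-endothelial level as a covariate the difference was -1.07 (edgeR adjusted p = 0.476). Angpt2 (ENSMUSG00000031465, chr8:18690263-18741562, minus strand) is uncertain, as it lies wholly inside Mcph1 on the opposite strand. Dll4, the Notch ligand of tip cells, had 11.5, 14.6, 17.4, 13.6 and 7.35 CPM in the EIC tumours and 13.7, 10.3, 8.70, 15.7 and 9.44 CPM in the 16IC tumours, a narrow and overlapping range (-0.16, adjusted p = 0.807). Relative to Cdh5, Dll4 differed by 0.10 between genotypes (exact permutation p = 0.770, adjusted 0.865).

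Angpt1, the agonist of TIE2 made mainly by mural and stromal cells, had 26.8, 3.86, 18.5, 36.3 and 22.5 CPM in the EIC tumours and 14.6, 30.5, 1.95, 7.75 and 66.5 CPM in the 16IC tumours. The 3 lowest tumours, 16IC 3, EIC 2 and 16IC 4, are among the 5 with high Angpt2. The log2 ratio of Angpt2 to Angpt1 was -2.23, 2.19, 0.17, -1.15 and -2.42 in EIC and -2.16, -3.03, 3.20, 1.18 and -4.27 in 16IC. The ratio was highest in 16IC 3, EIC 2, 16IC 4 and EIC 3, and it spread over more than the genotypes differed (difference -0.33, exact permutation p = 0.865, adjusted 0.865). For Angpt1 itself the log2 difference was 0.17 (interval from -1.60 to 1.94, edgeR adjusted p = 0.938), and it was -0.66 without 16IC 5 and -0.59 with limma's quality weights. Set beside these, Vegfa, the main VEGF ligand and a hypoxia-responsive gene, had 113, 394, 1258, 209 and 45.8 CPM in the EIC tumours and 72.9, 57.3, 275, 197 and 57.1 CPM in the 16IC tumours. Adm, the adrenomedullin ligand, had 22.0, 26.6, 105, 34.2 and 5.78 CPM in the EIC tumours and 3.53, 3.63, 51.5, 15.8 and 6.57 CPM in the 16IC tumours. Vegfa and Adm were both highest in EIC 3, and within 16IC in 16IC 3. Their part in the Angpt2 level was not tested.

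**Figure D4:**
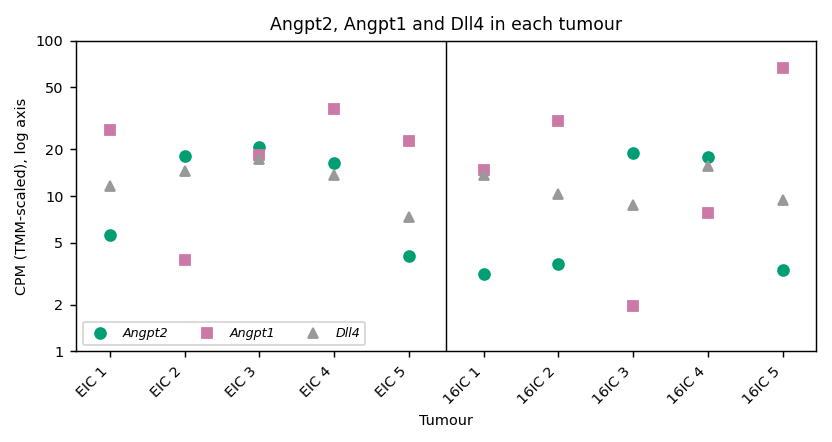
CPM of Angpt2, Angpt1 and Dll4 in each of the 10 tumours on a logarithmic axis, by genotype. Angpt2 lies at 16.3 CPM or above in EIC 2, EIC 3, EIC 4, 16IC 3 and 16IC 4 and at 5.62 CPM or below in the other tumours, while Dll4 stays between 7.35 and 17.4 CPM.

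Of the lymphatic genes, Prox1 had the lowest mean in both genotypes. Prox1, the transcription factor that specifies lymphatic endothelium, had 2.61, 0.297, 0.240, 0.375 and 0.482 CPM in the EIC tumours and 1.22, 2.26, 0.304, 0 and 3.28 CPM in the 16IC tumours. It had no count in 16IC 4, which allows a level of up to 0.203 CPM (3 counts, counting error only). The highest levels were in 16IC 5, EIC 1 and 16IC 2, so the genotypes overlapped, and DESeq2 gave an adjusted p of 0.733. In the authors' FPKM it was the least abundant of the 33 genes, with a median of 0.0494.

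Lyve1 (ENSMUSG00000030787, chr7:110850607-110863239, minus strand) encodes a hyaluronan receptor of lymphatic endothelium and of some macrophages. It had 10.9, 5.17, 4.97, 14.5 and 5.78 CPM in the EIC tumours and 1.95, 3.39, 0.122, 1.10 and 10.1 CPM in the 16IC tumours. All 16IC tumours except 16IC 5 lay below all EIC tumours. The log2 difference was -1.31 (SE 0.82, interval from -3.11 to 0.50, edgeR adjusted p = 0.495), so Lyve1 did not pass. With the pan-endothelial level as a covariate it was -1.34 (edgeR adjusted p = 0.373). The difference was -2.25 with limma's quality weights. Without 16IC 5 it was -2.33, and DESeq2 then called Lyve1 (adjusted p = 0.0246). Macrophage markers summed to 334 to 621 CPM in EIC and 254 to 609 CPM in 16IC, with 9 of 10 lower in 16IC (median -0.29, 1 lower with an unadjusted p under 0.05, background 6.29%) and none at 0. That gene, Timd4, is a receptor of tissue-resident macrophages and was also named after its values were seen. It had 0.779 to 3.19 CPM in EIC and 0.0608 to 0.704 CPM in 16IC (-1.81, edgeR adjusted p = 0.325, DESeq2 adjusted p = 0.139). Its groups did not overlap (background 1.19%), but only by the gap between 0.704 CPM in 16IC 5 and 0.779 CPM in EIC 3. In 16IC 3 and 16IC 4 it stood at 0.0608 and 0.0686 CPM, below the level of 3 counts (0.179 and 0.203 CPM). The part of these markers in the Lyve1 level was not tested.

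Flt4, the receptor for VEGF-C and VEGF-D on lymphatic and sprouting blood endothelium, had 12.3, 12.0, 17.1, 14.0 and 9.39 CPM in the EIC tumours and 12.0, 7.31, 5.90, 8.64 and 11.3 CPM in the 16IC tumours. Its groups overlapped. They separated without EIC 5, but only by the gap between 11.96 CPM in 16IC 1 and 12.00 CPM in EIC 2. The log2 difference was -0.52 (SE 0.25, interval from -1.07 to 0.03, edgeR adjusted p = 0.394). The wider lymphatic list, 8 further genes, had 6 tested, of which 5 were lower and 1 higher (median -0.50), and 0 passed edgeR. Reln, a matrix glycoprotein secreted by lymphatic endothelium among other cells, averaged 7.69 ± 9.69 CPM in EIC against 0.997 ± 0.588 CPM in 16IC (-2.93, edgeR adjusted p = 0.290, DESeq2 adjusted p = 0.0311). The EIC mean rests on EIC 3 with 23.1 and EIC 2 with 11.4 CPM, while EIC 1, EIC 4 and EIC 5 had 2.14, 1.25 and 0.542 CPM, near the 16IC range of 0.426 to 1.90 CPM. Podoplanin, Pdpn, found on lymphatic endothelium and on stromal cells, had 15.7 ± 16.4 and 6.75 ± 4.63 CPM (-1.22, edgeR adjusted p = 0.518). Mmrn1 and the chemokine gene Ccl21a did not pass edgeR's filter, and DESeq2 gave adjusted p of 0.122 and 0.235. Mmrn1 stood at 1.44 ± 1.29 CPM in EIC against 0.245 ± 0.261 CPM in 16IC, and Ccl21a at 0.803 ± 1.28 against 0.0526 ± 0.0726 CPM.

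Of the ligands and partners around these receptors, none passed edgeR. For the VEGF ligands and neuropilins, 6 of 7 genes were lower and 1 higher (median -0.90, against -0.02 over all genes tested). The neuropilin Nrp2, a co-receptor of VEGF-C, averaged 35.2 ± 20.3 CPM in EIC against 15.1 ± 4.23 CPM in 16IC (-1.22, adjusted p = 0.290). Vegfc, the ligand of Flt4, had 10.4 ± 7.03 and 3.37 ± 2.22 CPM (-1.62, adjusted p = 0.312). Among the calcitonin-family ligands and other receptors 4 of 7 genes could be tested, with 3 lower and 1 higher (median -0.74). Adm averaged 38.7 ± 38.5 CPM in EIC and 16.2 ± 20.3 CPM in 16IC (-1.26, adjusted p = 0.544). Ackr3, a scavenging receptor that also takes up adrenomedullin, had 24.3 ± 16.6 and 13.7 ± 6.87 CPM (-0.83, adjusted p = 0.494).

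Further sprouting genes were lower for 8 of 10 and higher for 2 (median -0.38). The urokinase receptor Plaur averaged 15.5 ± 5.94 CPM in EIC against 6.06 ± 1.81 CPM in 16IC (-1.35, edgeR adjusted p = 0.249, DESeq2 adjusted p = 0.00962). Its groups did not overlap (background 1.19%), and which cells express Plaur was not tested. Apln, the apelin peptide gene of tip cells, had 65.4 ± 41.8 and 20.2 ± 12.5 CPM (-1.69, edgeR adjusted p = 0.288, DESeq2 adjusted p = 0.0459). Of the Notch partners 6 of 8 were higher and 2 lower (median 0.29), and scaling by total count left 5 higher. Notch4, a Notch receptor of endothelium, averaged 32.6 ± 13.6 CPM in EIC against 67.2 ± 27.0 CPM in 16IC (1.05, edgeR adjusted p = 0.290). Which cells express Notch4 was not tested. The ligand Jag1 had 20.6 ± 8.55 and 10.8 ± 2.28 CPM (-0.94, edgeR adjusted p = 0.290). Arterial and venous genes were lower for 8 of 10 tested and higher for 2 (median -0.14). The venous ephrin receptor Ephb4 had 323 ± 70.2 and 281 ± 48.1 CPM (-0.20, adjusted p = 0.628). In 16IC 3, where pan-endothelial genes were low, it had 245 CPM (234 to 354 CPM in 16IC). Which cells express it was not tested. Ackr1, a chemokine-binding receptor of venules, had 1.72 ± 1.53 and 0.611 ± 0.592 CPM (-1.47, adjusted p = 0.493).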

How the data were processed

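RNA from 10 frozen mouse mammary tumours (5 EIC, 5 16IC, each from its own animal) was sequenced, and the authors deposited 1 table of all genes. Per its headers and values, the deposited table holds raw counts per gene, counts divided by 1 factor per library (signal), FPKM, a gene length in bases, and the authors' log2 fold change with p-values. The submitters' processing notes name Trimmomatic, STAR, HTSeq, edgeR, limma and GRCm38 (mm10) without versions. No source used here says whether counting used strand.

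The deposited counts were tested with edgeR 4.0.16 (TMM scaling, filterByExpr with a minimum count of 10, robust quasi-likelihood, R 4.3.3), comparing 5 with 5 tumours without covariates, with Benjamini-Hochberg adjustment over 14915 genes and a threshold of 0.05. Ratios within tumours used log2 CPM with a prior count of 2 and exact two-sided permutation over all arrangements of the tumours. CPM were computed from the counts, and the authors' FPKM served for levels between genes. Alternatives were other scalings and filters, DESeq2 1.42.0, limma 3.58.1 with quality weights, the pan-endothelial level as a covariate, and each tumour left out. DESeq2 without 1 tumour at a time, and the spread of the pan-endothelial genes without 16IC 3 and EIC 2, were added after seeing the data. Promoters came from RefSeq (GRCm38.p6), and gene overlaps from GENCODE on GRCm38.

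The members, the lists and the rule for named genes (all 33 members, and from each other list those past the threshold or the 2 with the smallest p) were chosen with earlier results of these data known, so tests on them are not independent evidence. Marker lists of other cells are given by counts and sums, except that the platelet list is not reported here in full. Adipocyte markers (8 genes, 5 at 0 in some tumour) summed to 137 to 557 CPM in EIC and 180 to 483 CPM in 16IC, and erythroid markers (5 genes) to 301 to 2581 and 375 to 906 CPM. The median biological coefficient of variation was 33.6%.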

Additional observations from a re-analysis of the deposited data

Results flagged for a closer look

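Tumours far from the other 4 of their genotype were looked for in 76 groups of 5 tumours (each gene in each genotype, and sums), where chance gives about 1 in 20, or 3.8. There were 14 such values, 11 of them the lowest value of 16IC 3. In that tumour Pecam1 had 24.9 CPM, Cdh5 21.3, Emcn 3.59, Eng 22.9, Tie1 8.15, Sox17 0.608, Nos3 1.22, Clec14a 5.41, Cd34 14.4 and Icam2 1.22 CPM, and the 24 pan-endothelial genes summed to 217 CPM. These 11 values come from 1 library. In EIC 2, Emcn stood low with 7.72 CPM and Rasip1 with 4.63 CPM. In EIC 1, Prox1 stood high with 2.61 CPM.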

How the results depend on the processing

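No paired analysis was possible because the labels give the groups no shared replicate numbers, and the numbers used here only name tumours. The count of vessel genes called as lower was 0 by edgeR and 1 (Ramp3, -2.06) by DESeq2, and 0 in the other alternatives run. With 1 tumour left out DESeq2 called 1 to 2 genes as lower (Lyve1 added without 16IC 5). Genes without overlap then numbered 0 to 1 as higher (Clec14a without 16IC 3) and 1 to 2 as lower (Emcn without EIC 2, Flt4 without EIC 5, Flt1 without 16IC 1 or Lyve1 without 16IC 5 added). Of 520 alternative values for members, 466 kept direction and side of the threshold, 53 changed sign and 1 newly passed. The sign changed at least once for 15 of 32 members, none with a difference beyond 0.24 in size, and the cause was not tested. Scaled by total counts, differences were -0.041 for Kdr, -0.000604 for Tie1, -9.78e-05 for Robo4, -0.014 for Ptprb and -0.020 for Rasip1. With limma's quality weights they were -0.27 for Tek, -0.031 for Erg, -0.11 for Tie1, -0.12 for Sox18, -0.077 for Sox7, -0.051 for Ptprb, -0.030 for Rasip1 and -0.59 for Angpt1. Without 1 tumour at a time they ran from -0.66 to 0.47 for Angpt1, -0.14 to 0.18 for Cd34, -0.27 to 0.024 for Cdh5, -0.11 to 0.22 for Erg, -0.34 to 0.000283 for Icam2, -0.14 to 0.22 for Kdr, -0.12 to 0.25 for Ptprb, -0.25 to 0.069 for Ramp2, -0.10 to 0.14 for Rasip1, -0.094 to 0.18 for Robo4, -0.34 to 0.065 for Sox17, -0.17 to 0.29 for Sox18, -0.22 to 0.28 for Sox7, -0.15 to 0.30 for Tek and -0.10 to 0.27 for Tie1. The ratio differences ran from -1.38 to 0.49 for Angpt2 to Angpt1, -0.077 to 0.27 for Dll4 to Cdh5, -1.98 to -1.54 for Ramp3 to Ramp2 and -2.33 to -1.81 for Ramp3 to Calcrl. Differences from the covariate fit are not given for the 24 pan-endothelial genes, which make up the covariate. Depth limits Prox1 (0 to 56 counts), Lyve1 in 16IC (2 to 172 counts) and Ramp3 in 16IC (18 to 21 counts). Outside the members it limits Timd4, which lay below the level of 3 counts in 16IC 3 and 16IC 4.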
